A study of Homo sapiens with 9 samples.

Results

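Cells build, lengthen and take apart actin filaments with a few gene families, and 47 genes of these families are described here in 3 lines of SW480 colon cancer cells. The genes encode the Arp2/3 complex (9 genes), WASP and WAVE proteins (5), partners of WAVE (5), WASP-interacting proteins (3), formins (12), Ena/VASP proteins (3), cortactin (1), nucleators with WH2 domains (5), profilins (2) and cofilins (2). They were chosen by family, with earlier results of these data known, and 47 of 47 were found by symbol among the 63677 Ensembl identifiers of each count file. SW480, from a human colon adenocarcinoma, is the parental line and the control. SW480-B is 1 clone of SW480 that survived G418 and makes BASP1 constantly from the CMV promoter of pcDNA3. SW480-gRNA-B-all was made by lentiviral transduction of SW480: it carries dCas9-VP64, the activator MS2-P65-HSF1 and pooled sgRNAs against the promoter of the cells' own BASP1 gene, passed through 1 cell at the dCas9 stage and was selected with hygromycin B for the activator and puromycin for the sgRNAs. Libraries of poly(A) RNA were sequenced from 3 replicates of each line (n = 3), and each difference between lines holds BASP1 together with clone, vector and drug selection, which cannot be told apart.

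Counts on genes ran from 28871024 to 29355669 per library in SW480, from 25238831 to 29266705 in SW480-B and from 27933387 to 29272161 in SW480-gRNA-B-all. Levels are given as CPM, the counts scaled to library size with TMM over the 9 libraries. A gene without counts in a library may hold up to 3 counts there, which is 0.102 to 0.119 CPM, and this floor covers counting error only. Each pair of lines was tested over its own 6 libraries with edgeR, and a gene is called where its Benjamini-Hochberg adjusted p is under 0.05 and its change exceeds 2-fold. SE stands for the standard error of a log2 fold change. It was worked back from the edgeR F statistic, as the absolute change divided by the square root of F. Both comparisons with SW480 share the SW480 libraries, so their values are set side by side and not correlated.

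Spontaneous assembly of actin is slow because the first few subunits do not hold together, and nucleators speed this step. The Arp2/3 complex, switched on by WASP and WAVE proteins, starts branches on existing filaments, while formins and Spire-like proteins start unbranched ones. Ena/VASP proteins and formins lengthen the fast-growing end with subunits delivered by profilin, cortactin stabilizes branches, and cofilin severs old filaments. In epithelial cells of the colon these proteins shape the brush border and cell junctions, and in tumour cells they drive protrusions.

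BASP1, which the lines were built to express, had 11.9, 8.04 and 0.692 CPM in SW480, 268, 269 and 250.5 CPM in SW480-B, and 167, 304 and 300.3 CPM in SW480-gRNA-B-all. It was low in each SW480 library and high in each library of the other lines, where the ranges overlap. CPM is not divided by length, and in the paper's Northern analysis the BASP1 transcript of SW480-B was the shorter one. The overlap in CPM therefore does not show equal numbers of BASP1 transcripts. Of 9 markers of colon epithelium 7 had a mean of at least 1 CPM, led by KRT8 with a mean of 4615 CPM, while KRT20 and CDX1 had at most 26 counts in a library. The summed epithelial markers were 8321, 9534 and 10980.0 CPM in SW480, 6997, 11370.0 and 8570.0 CPM in SW480-B, and 6336, 7810.0 and 7773 CPM in SW480-gRNA-B-all. All 3 libraries of the last line were below all of SW480, and SW480-B overlaps both. Fibroblast markers summed to 2.9 to 10.9 CPM, led by COL1A1 with a mean of 6.09 CPM, and COL3A1 was at 0. Leukocyte markers summed to 0.655 to 2.74 CPM, led by CD14 with a mean of 1.065 CPM. Endothelial markers summed to 0.862 to 4.41 CPM, led by VWF with a mean of 1.95 CPM. Markers of other cell types were thus low in all 9 libraries.

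Some libraries stood apart before any test. Replicates 2 and 3 of SW480-gRNA-B-all were the closest pair within a line, with 2.08% of genes more than 2-fold apart, against 11.1% to 30.8% for the other pairs. Fragments on no gene made up 8.16% of SW480 replicate 1 and 9.93% of SW480-B replicate 1, and at most 6.85% of any other library. Among the 42 members with enough counts to rank within a line, SW480 replicate 1 was the lowest SW480 library for 25 (59.5%, against 40.5% of all genes), and SW480 replicate 3 was the highest for 22 (52.4%, against 37.5%). In SW480-B, replicate 1 was the lowest for 20 members (47.6%, against 37.8% of all genes). SW480-gRNA-B-all replicate 1, with 5.59% of fragments on no gene, was both the lowest of its line for 21 (50%, against 44.9% of all genes) and the highest for 19 (45.2%, against 45.7%), so it stood apart from the near-alike pair in both directions. The median ratio of the highest to the lowest library was 1.66 for members and 1.65 for all genes in SW480, 1.52 and 1.53 in SW480-B, and 1.23 and 1.27 in SW480-gRNA-B-all.

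**Figure D1:**
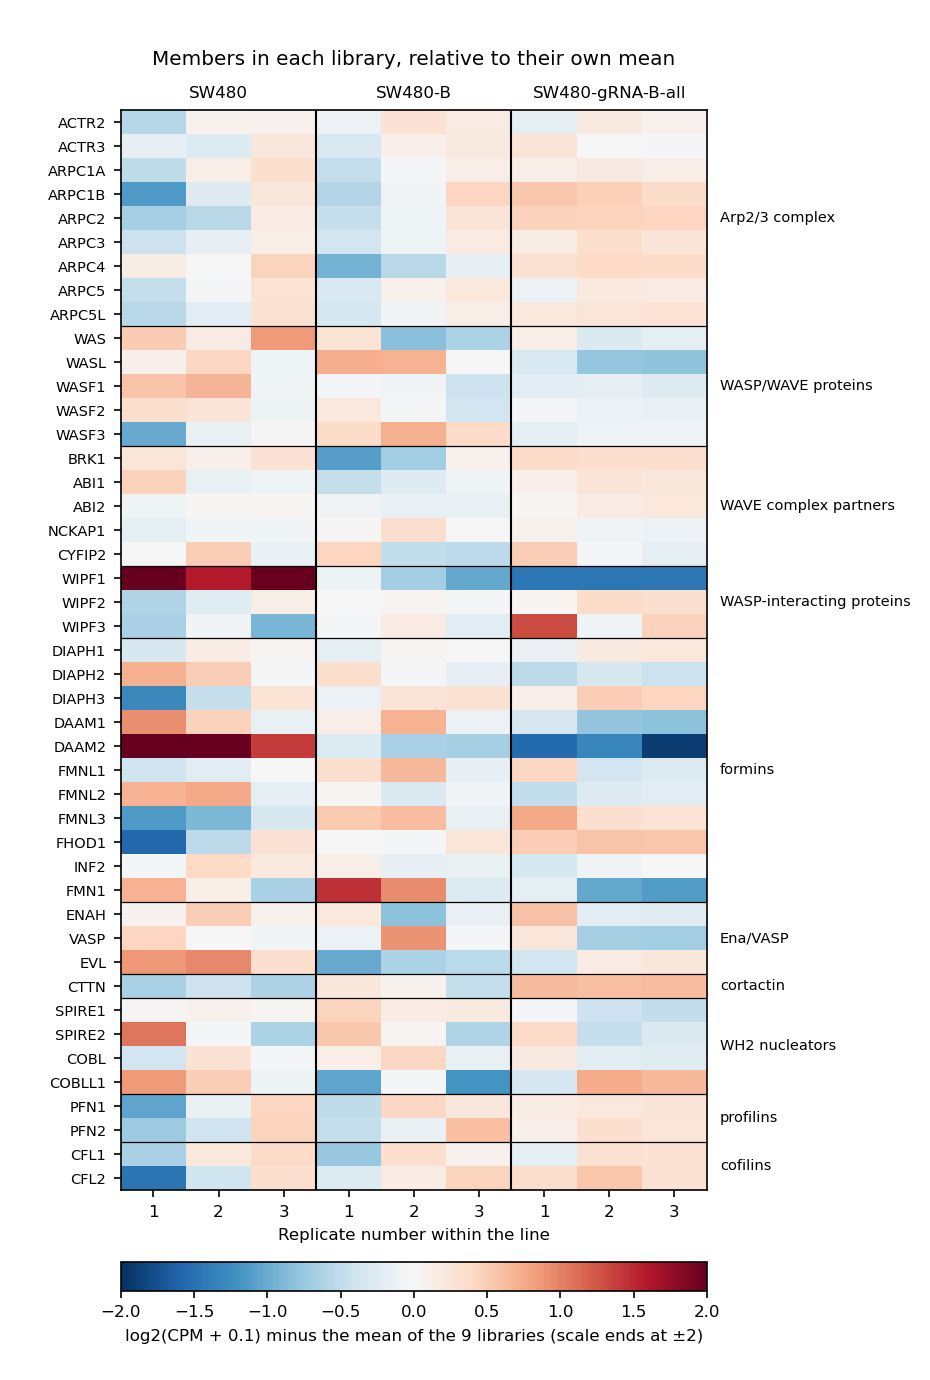
Each row is a member with at least 30 counts, each column a library, and the colour is log2(CPM + 0.1) minus the gene's mean over the 9 libraries, with families separated by lines. WIPF1 and DAAM2 are high in the 3 SW480 libraries, CTTN is high in the 3 SW480-gRNA-B-all libraries, and SW480 replicate 1 is the lowest SW480 library for 25 of 42 members.

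Few members moved by more than 2-fold. In SW480-gRNA-B-all against SW480, 45 members were tested, 2 were called higher (CTTN and FMNL3; 1.89% of all 16100 genes tested were so) and 2 lower (WIPF1 and DAAM2; 4.66% of all genes). Members whose libraries did not overlap between these lines were 7 higher (18.0% of all genes) and 10 lower (19.9%). Their median log2 fold change was 0.12, against -0.05 for all genes, and it was the same with WIPF1 at its bound. In 6 of the 45 (13.3%) the fold change exceeded 2-fold, against 20.3% of all genes. Without SW480 replicate 3 there were 6 calls higher (5.70% of all genes in that fit) and 5 lower (10.1%). Without SW480 replicate 1 there were 1 (2.29%) and 2 (4.16%), and without SW480-gRNA-B-all replicate 1 there were 1 (0.203%) and 0 (0.86%). Without SW480 replicate 2, or replicate 2 or 3 of SW480-gRNA-B-all, edgeR called 0 in either direction. Of all genes in these fits, 0.00606% to 0.0892% were called higher and 0.0424% to 0.375% lower. Over all 6 libraries 12 members had an unadjusted edgeR p under 0.05 (28.4% of all genes), and DESeq2 called 2 higher (2.88% of all genes) and 3 lower (5.10%).

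In SW480-B against SW480, where 45 members were tested, edgeR called 0 higher (0.0931% of all 16106 genes tested were so) and 2 lower (WIPF1 and DAAM2; 1.25% of all genes). At an unadjusted p under 0.05 there were 3 members higher and 5 lower (15.8% of all genes in either direction), and DESeq2 called 1 higher (FMNL3; 1.22% of all genes) and 3 lower (2.43%). Without overlap between the lines, 4 members were higher (10.6% of all genes) and 5 lower (11.8%). The median was 0.09, against -0.004 for all genes. Without SW480 replicate 3 there were 1 call higher (1.34% of all genes in that fit) and 3 lower (4.12%), and without any 1 of the other 5 libraries 0 in either direction. Of all genes in those 5 fits, 0.0% to 0.0851% were called higher and 0.0% to 1.21% lower.

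SW480-gRNA-B-all against SW480-B tests the difference between the lines that express BASP1 directly, over 43 members. Here 0 were called higher by edgeR (2.31% of the 15846 genes tested) and 1 lower (WASL; 4.37%), with 8 members higher and 6 lower at an unadjusted p under 0.05 (24.4% of all genes in either direction) and 1 higher (COBLL1; 1.93% of all genes) and 2 lower (WASL and FMN1; 3.54%) by DESeq2. Members without overlap were 9 higher (15% of all genes) and 5 lower (15.4%). The median was 0.16, against -0.004 for all genes. Without SW480-B replicate 3 there were 2 calls higher (3.71% of all genes in that fit) and 3 lower (5.75%). Without SW480-gRNA-B-all replicate 1 there were 0 (2.51%) and 1 (5.59%), and without any 1 of the other 4 libraries 0 and 0. Of all genes in those 4 fits, 0.826% to 1.37% were called higher and 1.74% to 2.84% lower.

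**Figure D2:**
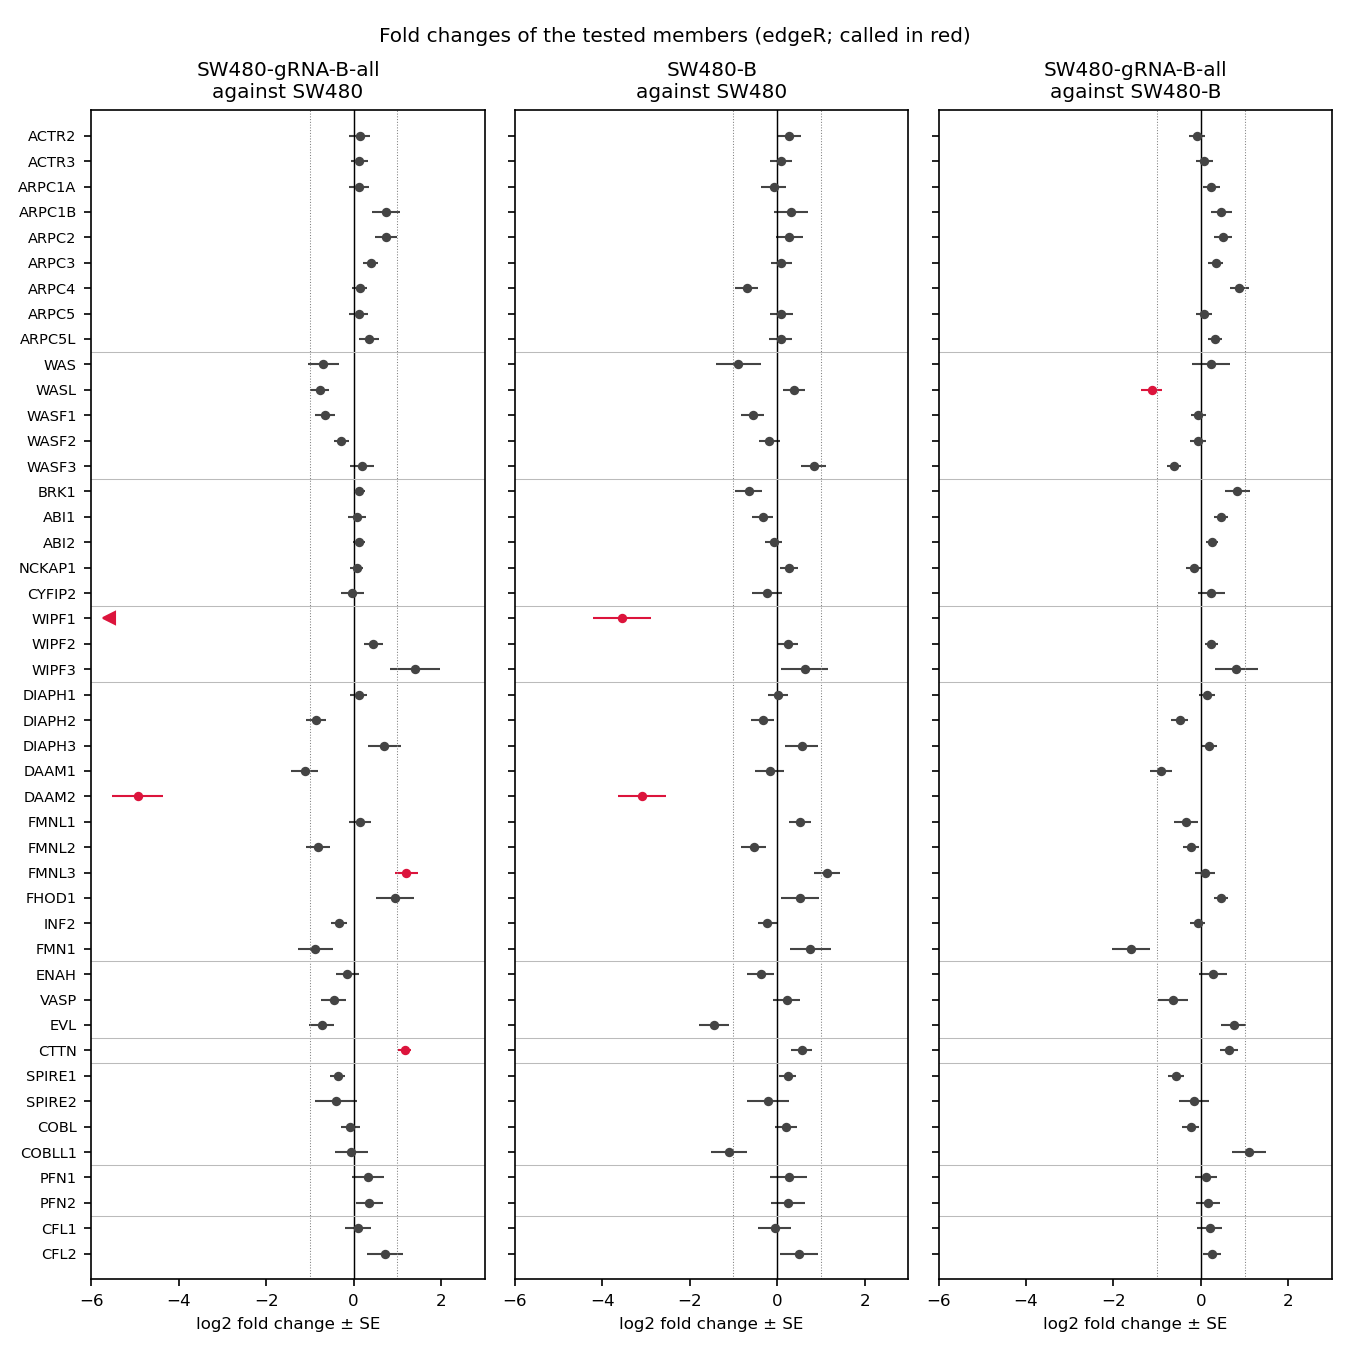
Points are log2 fold changes with bars of 1 standard error for the tested members, 1 panel per comparison, in family order, with called members in red and dotted lines at 2-fold; the arrowhead for WIPF1 marks a fitted value beyond the axis, as SW480-gRNA-B-all has 0 counts. Most members lie between the dotted lines, and the called ones are CTTN at 1.17, FMNL3 at 1.21, DAAM2 at -4.94 and -3.09, WIPF1 at -3.54 in SW480-B, and WASL at -1.13.

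Levels of the families differ widely. Summed as CPM per kilobase of canonical-transcript exon, profilins took 33.1% of the members' total in SW480, the Arp2/3 complex 24.7%, cofilins 24.0%, formins 5.64%, partners of WAVE 4.58%, Ena/VASP 3.04%, WASP and WAVE proteins 2.52%, WH2 nucleators 1.16%, cortactin 0.957% and WASP-interacting proteins 0.341%. Monomer delivery, branching and severing thus made up most of the RNA. A mean of at least 1 CPM was reached by 44 of the 47 members in SW480 and by 41 in each of the other lines. The total over the 47 genes was 2043, 3037 and 3805 CPM per kilobase in SW480, 2289.8, 3671 and 3445 in SW480-B, and 3331, 3642 and 3635 in SW480-gRNA-B-all. This total was lowest in replicate 1 of each line, and the ranges of the lines overlap.

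The Arp2/3 complex starts branched filaments; ACTR2 and ACTR3 form the seed of the branch, and the ARPC subunits hold it to the mother filament. Its total was 551, 717 and 929 CPM per kilobase in SW480, 609.8, 802 and 929.6 in SW480-B, and 955, 999 and 964 in SW480-gRNA-B-all. SW480-gRNA-B-all was thus above all other libraries, though SW480 replicate 3 and SW480-B replicate 3 came close to it. The mean of SW480-gRNA-B-all was 1.33-fold that of SW480 (log2 ratio 0.41, SD 0.38), and that of SW480-B 1.07-fold. No test was run on totals. Without SW480 replicate 1 the log2 ratio for SW480-gRNA-B-all was 0.24.

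In SW480-gRNA-B-all against SW480, log2 fold changes of the 9 Arp2/3 genes ran from 0.12 to 0.74, above 0 in 9 of 9 with TMM, RLE and DESeq2 scaling and in 6 of 9 without SW480 replicate 1. edgeR called 0 of the 9 (of all genes, 1.89% higher and 4.66% lower), and DESeq2 called 0 (2.88% and 5.10%). An unadjusted edgeR p under 0.05 was reached by 1 of the 9, against 28.4% of all genes. ARPC2, part of the core that joins the seed to the mother filament, was the most abundant, with a mean of 217 CPM per kilobase over the 9 libraries. It had 185, 199 and 330.0 CPM in SW480, 214, 277 and 352 CPM in SW480-B, and 406, 398 and 394 CPM in SW480-gRNA-B-all. These last values were above all others, while SW480 and SW480-B overlap. The log2 fold change of ARPC2 was 0.74 (SE 0.25, edgeR adjusted p 0.109, not called) in SW480-gRNA-B-all, while that in SW480-B was 0.28 (adjusted p 0.701). Without SW480 replicate 3 it was 1.07 and called (adjusted p 0.0138, between 0.0138 and 0.271 over the fits that leave out a library). Low values in replicate 1 of SW480 and of SW480-B fall in the libraries with the most fragments on no gene, 8.16% and 9.93%, and the part of this in the Arp2/3 values was not tested.

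ARPC1B and ARPC1A are alternative forms of 1 subunit. ARPC1B made up 28.2%, 31.8% and 36.3% of the pair's CPM per kilobase in SW480, 36.1%, 37.3% and 42.6% in SW480-B, and 44.8%, 42.7% and 41.8% in SW480-gRNA-B-all. In each SW480-gRNA-B-all library the share was above all of SW480, and SW480-B lay between and overlapped both. In CPM, ARPC1B had 60.1, 111 and 155 in SW480, 88.6, 128 and 178 in SW480-B, and 192, 184 and 172 in SW480-gRNA-B-all. Against SW480 the log2 fold change of ARPC1B was 0.74 in SW480-gRNA-B-all (SE 0.32, edgeR adjusted p 0.185), and without SW480 replicate 3 it was 1.11 and called (adjusted p 0.0468, between 0.0468 and 0.364 over such fits). ARPC5L, the alternative of ARPC5, took 62.9%, 61.1% and 64.6% of its pair in SW480, 63.9%, 61.9% and 63.1% in SW480-B, and 69.4%, 65.1% and 66.0% in SW480-gRNA-B-all. That share was above both other lines in each SW480-gRNA-B-all library, by 3.94 percentage points against SW480.

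ARPC4 (ENSG00000241553, GRCh37 chr3:9834179-9848785, plus strand), a core subunit, followed another pattern. It had 48.4, 43.9 and 59.1 CPM in SW480, 22.4, 29.5 and 38.8 CPM in SW480-B, and 53.6, 57.3 and 56.3 CPM in SW480-gRNA-B-all. All 3 SW480-B libraries were below the other 6. The direct test gave a log2 fold change of 0.88 (SE 0.21) for SW480-gRNA-B-all against SW480-B, with an edgeR adjusted p of 0.0382 but less than a 2-fold change, so ARPC4 was not called. Without SW480-B replicate 3 it was 1.10 and called (adjusted p 0.0127), and without any 1 of the other 5 libraries the adjusted p was 0.0627 to 0.142. It was 0.140 with the near-alike SW480-gRNA-B-all libraries summed and 0.0511 with all 9 libraries in 1 fit, in a range of 0.00731 to 0.140 over the alternative edgeR and DESeq2 fits. Against SW480 the log2 fold change was -0.70 (adjusted p 0.258) in SW480-B and 0.14 (adjusted p 0.603) in SW480-gRNA-B-all. A read-through gene, ARPC4-TTLL3, overlaps ARPC4 on the same strand, and its mean of 0.00748 CPM was far below that of ARPC4.

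WASP and WAVE proteins bind Arp2/3 and actin and switch the complex on; WASL is N-WASP, and WASF1, WASF2 and WASF3 are the WAVE proteins. Their total was 75.0, 83.9 and 65.0 CPM per kilobase in SW480, 86.8, 85.1 and 62.5 in SW480-B, and 60.4, 56.2 and 55.1 in SW480-gRNA-B-all. The last line was below each library of both others, at 0.767-fold the mean of SW480. WASF2, with a mean of 26.7 CPM per kilobase, was the most abundant, and WAS, known from blood cells, had 0.607. In SW480-gRNA-B-all against SW480 the log2 fold changes were below 0 for 4 of the 5, with WASF3 at 0.20, and for 5 of 5 without SW480 replicate 1.

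WASL (ENSG00000106299, GRCh37 chr7:123321997-123389057, minus strand) had 83.7, 103 and 73.5 CPM in SW480, 128, 126 and 78.5 CPM in SW480-B, and 63.1, 45.4 and 44.2 CPM in SW480-gRNA-B-all. The SW480-gRNA-B-all libraries were the lowest 3 of the 9, and SW480 and SW480-B overlap. WASL fell by 1.13 on the log2 scale in SW480-gRNA-B-all against SW480-B (SE 0.24, edgeR adjusted p 0.0248, lower in 3 of 3 libraries). The call was lost without SW480-B replicate 1 (adjusted p 0.0807), SW480-B replicate 2 (0.0962), or SW480-gRNA-B-all replicate 2 (0.112) or 3 (0.116), and with those last libraries summed (0.114, in a range of 0.000602 to 0.114 over the alternative fits). Against SW480 the log2 fold change was -0.78 (adjusted p 0.0684) in SW480-gRNA-B-all and 0.39 (adjusted p 0.499) in SW480-B, and neither was called.

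Partners of WAVE hold it inactive until Rac binds; they are BRK1, ABI1, ABI2, NCKAP1 and CYFIP2. CYFIP1, the paralogue of CYFIP2, is not among the 47 and was not matched to an identifier by symbol, so the total lacks it. Their total was 139, 129 and 139 CPM per kilobase in SW480, 83.8, 96.9 and 125 in SW480-B, and 149, 147 and 147 in SW480-gRNA-B-all. SW480-B was below and SW480-gRNA-B-all above every SW480 library. BRK1, the smallest subunit and the most abundant at a mean of 72.2 CPM per kilobase, had 93.4, 85.0 and 96.4 CPM in SW480, 36.8, 48.7 and 84.2 CPM in SW480-B, and 103, 99.3 and 100.1 CPM in SW480-gRNA-B-all. Without division by length, which changes the weight of every partner, the log2 ratio of the total in SW480-B to SW480 went from -0.41 to -0.02. The part of BRK1 alone in this order was not tested. BRK1 had a log2 fold change of -0.65 in SW480-B against SW480 (SE 0.31, edgeR adjusted p 0.354). In SW480-gRNA-B-all against SW480-B it was 0.83 (SE 0.28, adjusted p 0.112), and without SW480-B replicate 3, the highest of that line, it was 1.24 and called (adjusted p 0.00911, between 0.00911 and 0.291 over such fits). ABI1, as a share of the pair with ABI2, was 51.0%, 38.6% and 39.3% in SW480, 34.8%, 39.7% and 42.4% in SW480-B, and 42.9%, 42.9% and 41.7% in SW480-gRNA-B-all, which overlap.

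WASP-interacting proteins stabilize WASP and N-WASP. WIPF2 was the main one, with a mean of 11.6 CPM per kilobase over the 9 libraries, against 0.0819 for WIPF1 and 0.115 for WIPF3. WIPF1 (ENSG00000115935, GRCh37 chr2:175424300-175547644, minus strand), known from lymphocytes, had 1.52, 0.724 and 0.983 CPM in SW480, 0.155, 0.071 and 0.035 CPM in SW480-B, and 0 in each SW480-gRNA-B-all library. As counts these are 44, 21 and 27, then 4, 2 and 1, then 0. Every SW480 library was above every other, at a level near 1 CPM.

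WIPF1 was at least 31.0-fold lower in the SW480-gRNA-B-all libraries than in parental cells, against a floor of 3 counts over the line, and was called (edgeR adjusted p 0.0167, lower in 3 of 3 libraries). It was called without SW480 replicate 1 or 3, and not without SW480 replicate 2 (adjusted p 0.0789) or replicate 1 (0.0583), 2 (0.0656) or 3 (0.0639) of SW480-gRNA-B-all, or with the latter pair summed (0.0571, in a range of 2.74e-06 to 0.0571 over the alternative fits). In SW480-B the mean of SW480 was 12.3-fold that of the line, and WIPF1 fell by 3.54 on the log2 scale (SE 0.67, edgeR adjusted p 0.0478, lower in 3 of 3 libraries). That call held without SW480 replicate 3 and was lost without SW480 replicate 1 (adjusted p 0.0938) or 2 (0.110), or SW480-B replicate 1 (0.201), 2 (0.242) or 3 (0.127). With the replicate block its adjusted p was 0.0369 by edgeR, in a range of 0.00122 to 0.0441 over the alternative fits. WIPF1 did not pass the count filter in SW480-gRNA-B-all against SW480-B, and a filter of at least 1 CPM in 3 libraries removes it from all comparisons.

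Formins ride on the growing end of unbranched filaments. Their total was 142, 181 and 178 CPM per kilobase in SW480, 172, 187 and 168 in SW480-B, and 164, 182 and 183 in SW480-gRNA-B-all. The lines overlap, at 1.06-fold of SW480 for SW480-gRNA-B-all and 1.05-fold for SW480-B. DIAPH1 led with a mean of 74.0 CPM per kilobase, and INF2 followed with 28.9. Of 11 tested formins 5 had a log2 fold change above 0 and 6 below in SW480-gRNA-B-all against SW480. The values ran from -4.94 for DAAM2 to 1.21 for FMNL3, so single member formins moved in opposite directions. FHOD3 and FHDC1, formins described below, are not among the members, so the total lacks them. Both fell in this comparison, with log2 fold changes of -2.41 for FHOD3 and -4.02 for FHDC1. Whether a total with them would stay level was not tested. FMN2, a formin of oocytes and neurons, had 3 counts in SW480, 1 in SW480-B and 0 in the other line and was tested in no comparison.

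FMNL3 (ENSG00000161791, GRCh37 chr12:50030282-50101948, minus strand), a formin of filopodia, had 25.4, 30.1 and 44.8 CPM in SW480, 80.7, 86.2 and 50.7 CPM in SW480-B, and 95.5, 69.8 and 68.2 CPM in SW480-gRNA-B-all. Every SW480 library was below the other 6, and the lines that express BASP1 overlap. FMNL3 rose by 1.21 on the log2 scale in SW480-gRNA-B-all (SE 0.26, edgeR adjusted p 0.0388, higher in 3 of 3 libraries). The call held without SW480 replicate 3 and was lost without SW480 replicate 1 (adjusted p 0.0514) or 2 (0.139), or SW480-gRNA-B-all replicate 1 (0.109), 2 (0.121) or 3 (0.117), and it was also lost with replicate number as a block (0.0533) and with replicates 2 and 3 of the line summed (0.113), in a range of 0.00103 to 0.113 over the alternative fits. In SW480-B the log2 fold change was 1.15 (SE 0.30, adjusted p 0.125, not called; 0.124 with the replicate block, in a range of 0.0271 to 0.148), and 1.42 and called without SW480 replicate 3 (adjusted p 0.0335). Between SW480-gRNA-B-all and SW480-B it was 0.10 (SE 0.24, adjusted p 0.836).

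DAAM2 (ENSG00000146122, GRCh37 chr6:39760074-39872653, plus strand), a formin that binds Dishevelled, had 2.65, 2.66 and 1.20 CPM in SW480, 0.309, 0.214 and 0.212 CPM in SW480-B, and 0.068, 0.10 and 0.033 CPM in SW480-gRNA-B-all. As counts these are 77, 77 and 33, then 8, 6 and 6, then 2, 3 and 1. SW480 was above SW480-B in each library, and SW480-B above SW480-gRNA-B-all. DAAM2 fell by 4.94 on the log2 scale in SW480-gRNA-B-all (SE 0.59, edgeR adjusted p 0.00936), where the mean of SW480 was 32.3-fold higher. This call was lost without SW480 replicate 2 (adjusted p 0.0577) or SW480-gRNA-B-all replicate 1 (0.0545), 2 (0.0556) or 3 (0.0622), and with the latter pair summed (0.0502, in a range of 3.19e-08 to 0.0502 over the alternative fits). In SW480-B it fell by 3.09 (SE 0.54, edgeR adjusted p 0.0378, 8.85-fold), a call lost without SW480 replicate 1 (adjusted p 0.0613) or 2 (0.142), or SW480-B replicate 1 (0.215), 2 (0.206) or 3 (0.120), with 0.0341 for the replicate block in a range of 3.26e-05 to 0.0366 over the alternative fits. DAAM2 did not pass the count filter between the lines that express BASP1.

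DAAM1, the paralogue of DAAM2, was far more abundant, with a mean of 5.10 CPM per kilobase against 0.134. It had 53.0, 38.0 and 25.0 CPM in SW480, 30.4, 45.0 and 25.5 CPM in SW480-B, and 22, 15.9 and 15.7 CPM in SW480-gRNA-B-all, the line with the lowest 3 values. In that line the log2 fold change was -1.12 against SW480 (SE 0.31, edgeR adjusted p 0.0686) and -0.91 against SW480-B (SE 0.25, adjusted p 0.0629), and neither was called. The value against SW480 was called without SW480 replicate 3 (adjusted p 0.0187) and by DESeq2, and over the alternative fits its adjusted p was 0.0152 to 0.222. The value against SW480-B was -1.07 and called without SW480-B replicate 3 (adjusted p 0.0339).

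FMN1, a formin of cell junctions, had 54.6, 36.3 and 21.3 CPM in SW480, 92.8, 64.8 and 27.7 CPM in SW480-B, and 29.7, 16.4 and 15.4 CPM in SW480-gRNA-B-all. Replicate 3 of SW480-B overlapped SW480-gRNA-B-all. The log2 fold change between these lines was -1.60 (SE 0.44, edgeR adjusted p 0.0599, not called), and without SW480-B replicate 3 it was -1.95 and called (adjusted p 0.0153, between 0.0153 and 0.197 over such fits). FHOD1, another formin, had 7.58, 15.8 and 27.9 CPM in SW480, 22.8, 22.1 and 27.0 CPM in SW480-B, and 32.1, 33.9 and 33.5 CPM in SW480-gRNA-B-all, the highest of the lines without overlap. Its log2 fold change of 0.95 against SW480 (SE 0.43, edgeR adjusted p 0.196) was not called, and without SW480 replicate 3, the highest of that line, it was 1.51 and called (adjusted p 0.0335, between 0.0335 and 0.376 over such fits).

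Ena/VASP proteins keep the growing end free of caps and feed it. VASP, the most abundant with a mean of 76.5 CPM per kilobase, had 218, 163 and 156 CPM in SW480, 150.4, 304 and 158 CPM in SW480-B, and 189, 103 and 100.4 CPM in SW480-gRNA-B-all. The lines overlap, with a wide spread in SW480-B. EVL had 11.7, 12.5 and 8.08 CPM in SW480, 3.13, 4.07 and 4.38 CPM in SW480-B, and 4.88, 7.18 and 7.52 CPM in SW480-gRNA-B-all. The 3 lines did not overlap, with SW480 the highest and SW480-B the lowest. EVL had a log2 fold change of -1.44 in SW480-B (SE 0.34, edgeR adjusted p 0.0982, not called); without SW480 replicate 3 it was -1.61 and called (adjusted p 0.0410), DESeq2 called it too, and over the alternative fits the adjusted p was 0.00131 to 0.106.

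Cortactin, encoded by CTTN (ENSG00000085733, GRCh37 chr11:70244510-70282690, plus strand), binds Arp2/3 and steadies branches in lamellipodia and invadopodia. CTTN had 86.0, 102 and 88.2 CPM in SW480, 158, 142 and 97.7 CPM in SW480-B, and 211, 206 and 208 CPM in SW480-gRNA-B-all. SW480-gRNA-B-all was the highest line and tight, while SW480-B spread from the SW480 range upward. CTTN rose by 1.17 on the log2 scale in SW480-gRNA-B-all (SE 0.14, edgeR adjusted p 0.0101, higher in 3 of 3 libraries), 2.26-fold by means. The call was lost without SW480 replicate 2 (adjusted p 0.0501) or replicate 2 (0.0656) or 3 (0.0656) of SW480-gRNA-B-all, and with the latter summed (0.0632, in a range of 1.08e-08 to 0.0632 over the alternative fits). In SW480-B the log2 fold change was 0.56 (SE 0.23, adjusted p 0.298), and the direct test between the lines that express BASP1 gave 0.65 (SE 0.20, adjusted p 0.0877), so a difference between them was not called.

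**Figure D3:**
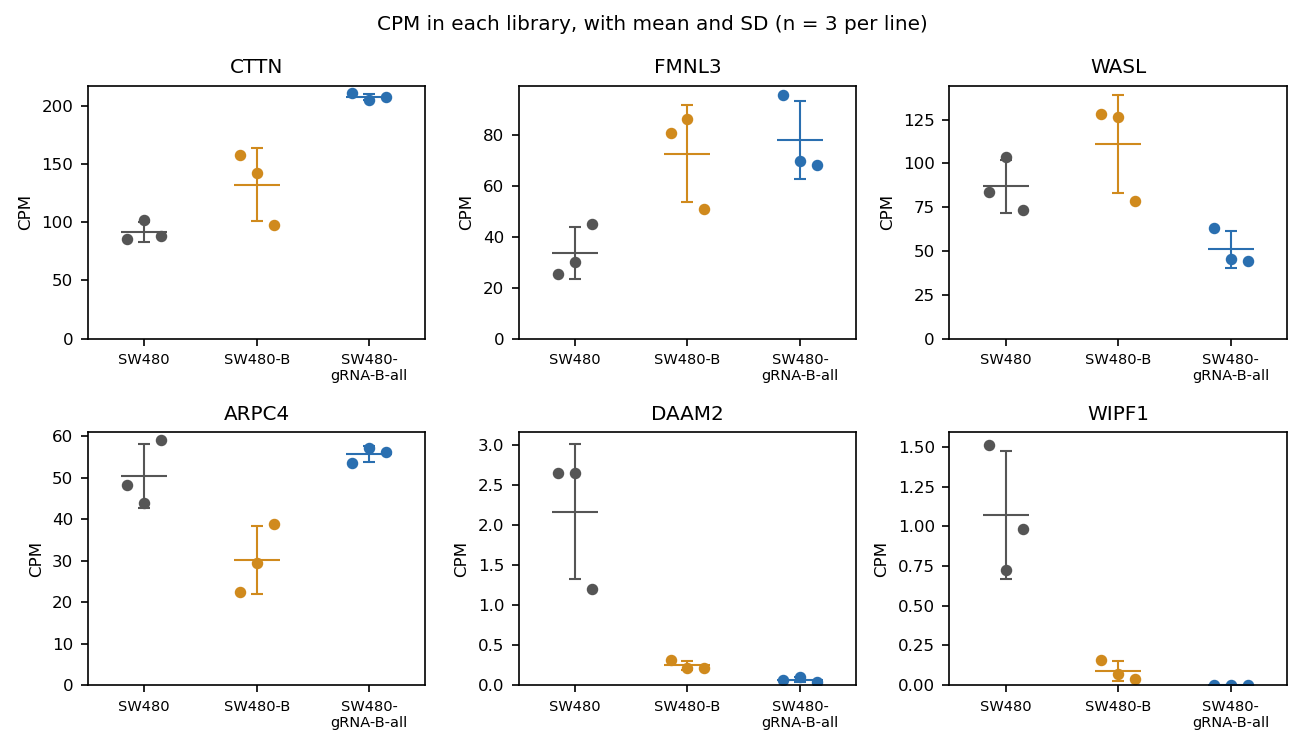
Points are CPM in each library, and bars mean and SD (n = 3), for CTTN, FMNL3, WASL, ARPC4, DAAM2 and WIPF1, on axes that start at 0. CTTN is highest in SW480-gRNA-B-all (206 to 211), WASL lowest there (44.2 to 63.1), ARPC4 lowest in SW480-B (22.4 to 38.8), and DAAM2 and WIPF1 are above 0.7 CPM in SW480 alone.

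Nucleators with WH2 domains line up actin subunits on short repeats. COBL, the most abundant with a mean of 19.0 CPM per kilobase, had 75.8, 122 and 98.3 CPM in SW480, 109, 133 and 90.0 CPM in SW480-B, and 113, 85.2 and 83.7 CPM in SW480-gRNA-B-all, and the lines overlap. COBLL1, its relative, had 19.0, 14.7 and 9.72 CPM in SW480, 4.99, 10.2 and 4.53 CPM in SW480-B, and 8.27, 17.6 and 16.4 CPM in SW480-gRNA-B-all. SW480-B held the lowest values but overlaps both lines. The log2 fold change of COBLL1 was -1.11 (SE 0.41, edgeR adjusted p 0.250) in SW480-B against SW480 and 1.10 (SE 0.40, adjusted p 0.134) in SW480-gRNA-B-all against SW480-B, and DESeq2 called the latter. SPIRE2, as a share of the pair with SPIRE1, was 39.2%, 22.2% and 16.1% in SW480, 24.8%, 22.5% and 15.3% in SW480-B, and 29.2%, 22.9% and 26.2% in SW480-gRNA-B-all, which overlap. LMOD1, a nucleator of muscle, had 5, 3 and 17 counts in the lines and was not tested.

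Profilins hand actin subunits to the growing end, and cofilins sever old filaments. PFN1 had the highest level of the members, with a mean of 1036 CPM per kilobase, and CFL1 followed with 708. PFN1 had 383, 731 and 1078 CPM in SW480, 563, 1067 and 933 CPM in SW480-B, and 886, 925 and 959 CPM in SW480-gRNA-B-all. CFL1 had 541, 983 and 1105 CPM in SW480, 503, 1068 and 898 CPM in SW480-B, and 752, 1046 and 1039.9 CPM in SW480-gRNA-B-all. In both genes replicate 1 of SW480 and of SW480-B stood lowest, and the lines overlap. Those are the libraries with 8.16% and 9.93% of fragments on no gene, whose part in these values was not tested. Replicate 1 of SW480-gRNA-B-all, with 5.59% of fragments on no gene, was also the lowest of its line for both genes. Against SW480, SW480-gRNA-B-all had a log2 fold change of 0.33 (SE 0.36, edgeR adjusted p 0.567) for PFN1 and 0.10 (SE 0.31, adjusted p 0.843) for CFL1.

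CFL2, the muscle form of cofilin, was 0.581%, 0.675% and 0.998% of its pair with CFL1 in SW480, 1.42%, 0.908% and 1.32% in SW480-B, and 1.46%, 1.22% and 1.02% in SW480-gRNA-B-all. Each SW480-gRNA-B-all value was above all of SW480, and the means differ by 0.483 percentage points, or by 1.87 with the length of all exons. CFL2 itself had 10.9, 23.1 and 38.5 CPM in SW480, 25.0, 33.8 and 41.6 CPM in SW480-B, and 38.6, 44.6 and 37.2 CPM in SW480-gRNA-B-all. PFN2, the profilin of neurons, was 9.44%, 6.36% and 7.70% of its pair in SW480, 7.73%, 5.33% and 9.64% in SW480-B, and 7.34%, 8.27% and 7.52% in SW480-gRNA-B-all, and the lines overlap. PFN1 has 11 annotated pseudogene copies and CFL1 has 8, and how the counting divided fragments between gene and copies was not tested.

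Other regulators of actin came from a list of 74 genes, of which 73 were matched to an identifier. In SW480-gRNA-B-all against SW480, 66 were tested, 3 were called higher (1.89% of all genes) and 4 lower (4.66% of all genes), and the median log2 fold change was 0.23 against -0.05 for all genes. At an unadjusted edgeR p under 0.05 there were 14 higher and 11 lower (28.4% of all genes), and DESeq2 called 7 higher (2.88%) and 6 lower (5.10%). Without overlap between the lines, 22 were higher (18.0%) and 13 lower (19.9%). Of the 7 calls, 0 were left without SW480 replicate 2 (0.00606% of all genes higher and 0.0424% lower). With the near-alike libraries summed there were 2 (0.119% and 0.458%). In SW480-B against SW480, 0 of 66 were called higher (0.0931% of all genes) and 1 lower (1.25% of all genes) by edgeR, with 7 higher and 5 lower at an unadjusted p under 0.05 (15.8% of all genes) and 0 higher (1.22% of all genes) and 3 lower (2.43%) by DESeq2. The median there was 0.18 against -0.004 for all genes, and without overlap between the lines 8 were higher (10.6% of all genes) and 5 lower (11.8%). With replicate number as a block 2 were called, as ESPN joined VIL1 (0.348% of all genes higher and 1.63% lower in that fit). The log2 fold change of ESPN there was -1.69 (edgeR adjusted p 0.0195, in a range of 0.00429 to 0.135 over the alternative edgeR and DESeq2 fits). In SW480-gRNA-B-all against SW480-B, 2 of 67 were called higher (2.31% of all genes) and 3 lower (4.37% of all genes), with a median of 0.10 against -0.004 for all genes.

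Fascin and tropomyosin shape what nucleators build. FSCN1, which bundles filaments in filopodia, had 59.1, 88.3 and 61.4 CPM in SW480, 63.0, 101.1 and 57.2 CPM in SW480-B, and 305, 243 and 237 CPM in SW480-gRNA-B-all. SW480-gRNA-B-all was far above both other lines, which overlap. FSCN1 rose by 1.90 on the log2 scale against SW480 (SE 0.22, edgeR adjusted p 0.00896, lost without SW480 replicate 2 at 0.0501) and by 1.83 against SW480-B (SE 0.24, adjusted p 0.00472, called without any 1 library). TPM1, a tropomyosin that coats filaments, had 32.0, 38.0 and 53.1 CPM in SW480, 19.8, 16.6 and 25.8 CPM in SW480-B, and 119, 153 and 147 CPM in SW480-gRNA-B-all. The lines did not overlap, with SW480-B the lowest. TPM1 rose by 2.75 against SW480-B (SE 0.22, edgeR adjusted p 0.000995, called without any 1 library) and by 1.76 against SW480 (SE 0.23, adjusted p 0.0123), the latter lost without SW480 replicate 2 (0.0768) or SW480-gRNA-B-all replicate 2 (0.0656) or 3 (0.0639), or with these summed (0.063, in a range of 1.37e-08 to 0.063 over the alternative fits). RAC2, known from blood cells, had 0.827, 3.59 and 4.22 CPM in SW480, 6.5, 13.0 and 5.27 CPM in SW480-B, and 19.7, 17.1 and 15 CPM in SW480-gRNA-B-all. SW480 was the lowest line and SW480-gRNA-B-all the highest, without overlap. RAC2 rose by 2.58 in SW480-gRNA-B-all against SW480 (SE 0.56, edgeR adjusted p 0.0397), a call lost without SW480 replicate 2 (0.129) or SW480-gRNA-B-all replicate 1 (0.110), 2 (0.13) or 3 (0.121). Summing replicates 2 and 3 of that line ends it too (0.12, in a range of 2.76e-05 to 0.12 over the alternative edgeR and DESeq2 fits).

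Villin and espin bundle actin in the microvilli of the brush border, and VIL1 also serves as a marker of colon epithelium. VIL1 had 344, 308 and 98.8 CPM in SW480, 29.7, 36.0 and 30.3 CPM in SW480-B, and 21.5, 6.81 and 6.35 CPM in SW480-gRNA-B-all. Each SW480 library was above the other 6, with SW480 replicate 3 the lowest of its line. VIL1 fell by 4.44 in SW480-gRNA-B-all (SE 0.70, edgeR adjusted p 0.0188) and by 2.94 in SW480-B (SE 0.45, adjusted p 0.0255). The first call was lost without SW480 replicate 2 (adjusted p 0.0864) or SW480-gRNA-B-all replicate 2 (0.0851) or 3 (0.0823), or with these summed (0.0794, in a range of 6.41e-12 to 0.0794 over the alternative edgeR and DESeq2 fits), and the second without SW480 replicate 2 (0.0772) or SW480-B replicate 1 (0.222), 2 (0.134) or 3 (0.0890), with 0.0217 for the replicate block in a range of 1.13e-08 to 0.0277 over the alternative edgeR and DESeq2 fits. ESPN had 112, 94.7 and 37.7 CPM in SW480, 24.2, 31.7 and 14.6 CPM in SW480-B, and 22.3, 22.1 and 22.1 CPM in SW480-gRNA-B-all. SW480 was again the highest line without overlap. ESPN fell by 1.89 in SW480-gRNA-B-all (SE 0.38, edgeR adjusted p 0.0345), a call that held without SW480 replicate 3 and was lost without SW480 replicate 1 (0.0561) or 2 (0.13), or SW480-gRNA-B-all replicate 1 (0.107), 2 (0.13) or 3 (0.129). It was also lost with replicates 2 and 3 of that line summed (0.129, in a range of 0.000137 to 0.129 over the alternative edgeR and DESeq2 fits).

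A pair of formin relatives outside the 47 fell in SW480-gRNA-B-all. FHOD3, a formin of heart sarcomeres, had 18.1, 19.9 and 20.8 CPM in SW480, 44.8, 39.0 and 17.3 CPM in SW480-B, and 4.14, 2.91 and 4.08 CPM in SW480-gRNA-B-all. The last line was below all 6 other libraries. FHOD3 fell by 2.41 against SW480 (SE 0.24, edgeR adjusted p 0.00695, lost without SW480 replicate 2 at 0.0501) and by 3.19 against SW480-B (SE 0.38, adjusted p 0.00313, called without any 1 library). FHDC1, a formin of the Golgi and cilia, had 303, 108 and 30.2 CPM in SW480, 31.8, 52.4 and 40.9 CPM in SW480-B, and 7.90, 10.1 and 9.42 CPM in SW480-gRNA-B-all. SW480-gRNA-B-all was the lowest line, and SW480 spread from just below the SW480-B values to the highest value of all. FHDC1 fell by 2.19 against SW480-B (SE 0.23, edgeR adjusted p 0.00204, called without any 1 library but not with all 9 libraries in 1 fit at 0.0862, in a range of 1.51e-14 to 0.0862 over the alternative fits) and by 4.02 against SW480 (SE 0.79, adjusted p 0.0322), the latter lost without SW480 replicate 2 (0.108) or SW480-gRNA-B-all replicate 1 (0.110), 2 (0.120) or 3 (0.122). The fall against SW480 was 2.93 without SW480 replicate 1, the highest of the 9 libraries, and its call was also lost without a count filter (0.093) and with the near-alike libraries summed (0.117, in a range of 4.78e-08 to 0.117 over the alternative edgeR and DESeq2 fits). ACTN4, an actinin that crosslinks filaments, had 2342, 2249.7 and 2674 CPM in SW480, 3423, 3828 and 3049 CPM in SW480-B, and 1809, 1297 and 1326 CPM in SW480-gRNA-B-all. The lines did not overlap. ACTN4 fell by 1.22 in SW480-gRNA-B-all against SW480-B (SE 0.22, edgeR adjusted p 0.0143), a call lost without SW480-gRNA-B-all replicate 2 (0.102) or 3 (0.103), and with these summed (0.101, in a range of 2.13e-06 to 0.101 over the alternative fits).

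**Figure D4:**
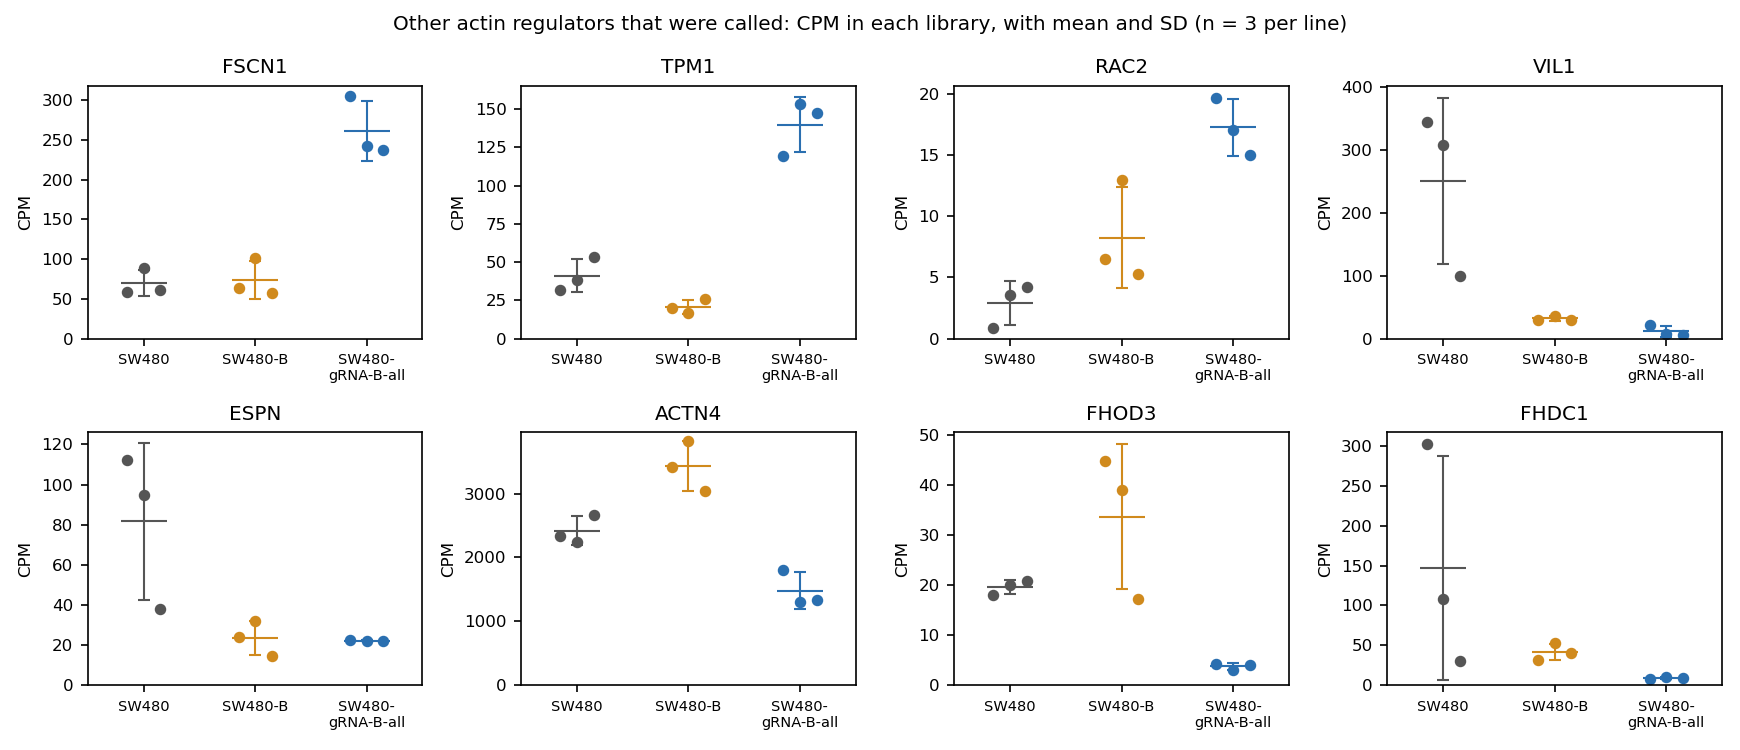
Points are CPM in each library, and bars mean and SD (n = 3), for 8 other actin regulators that were called, on axes that start at 0. FSCN1 and TPM1 are high in SW480-gRNA-B-all (237 to 305 and 119 to 153 CPM), and VIL1 is high in SW480 (98.8 to 344 CPM).

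Promoters are shown for the members that were called against SW480 and are listed in the RefSeq promoter table (GRCh38.p14, 250 bases before to 50 after a start): 42 of the 47 members have 63 entries there. The starts shown are the first listed for DAAM2 (chr6:39792126-39792425, plus strand; 64.3% GC), FMNL3 (chr12:49707356-49707655, minus strand; 78.3% GC) and WIPF1 (chr2:174682864-174683163, minus strand; 77.7% GC). Capitals mark the letters of a cAMP response element, TGACGTCA, and of a GC box, GGGCGG, on either strand.
DAAM2: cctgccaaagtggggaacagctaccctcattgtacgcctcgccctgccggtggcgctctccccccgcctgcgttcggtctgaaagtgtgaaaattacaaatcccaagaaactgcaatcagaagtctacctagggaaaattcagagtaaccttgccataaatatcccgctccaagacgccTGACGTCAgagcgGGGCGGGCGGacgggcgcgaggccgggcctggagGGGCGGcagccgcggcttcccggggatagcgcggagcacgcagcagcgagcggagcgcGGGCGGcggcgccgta
FMNL3: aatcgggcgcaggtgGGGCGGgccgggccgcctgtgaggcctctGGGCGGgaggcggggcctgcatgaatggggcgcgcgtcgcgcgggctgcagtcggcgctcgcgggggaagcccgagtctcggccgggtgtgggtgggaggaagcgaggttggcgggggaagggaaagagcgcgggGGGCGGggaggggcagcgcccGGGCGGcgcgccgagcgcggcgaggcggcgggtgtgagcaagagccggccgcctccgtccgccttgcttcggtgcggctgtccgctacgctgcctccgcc
WIPF1: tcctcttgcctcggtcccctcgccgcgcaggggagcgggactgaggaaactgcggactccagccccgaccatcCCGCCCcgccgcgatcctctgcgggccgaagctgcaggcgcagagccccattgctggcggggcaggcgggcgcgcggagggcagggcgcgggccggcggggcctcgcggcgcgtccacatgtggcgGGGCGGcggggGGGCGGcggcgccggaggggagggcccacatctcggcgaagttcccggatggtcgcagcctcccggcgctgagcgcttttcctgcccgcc
The cAMP response element stands in 1.85% of all 35116 promoters and in 1 of the 63, that of DAAM2, from base -71. GC boxes stand in 45.0% of all promoters and in 50 of the 63 (79.4%), which belong to 39 members, and neighbouring boxes overlap in DAAM2. The E box CACGTG stands in 7.26% of all and in 5 of the 63 (7.94%), those of CFL2, DIAPH1, DIAPH2, EVL and INF2. The CArG box, known from serum response genes, stands in 1.29% of all and in 0 of the 63. Median GC content was 68.3% in the members' promoters and 58.7% in all, and these motifs were picked after the sequences had been read.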

How the data were processed

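The deposited count files hold, per library, whole fragment counts for 63677 Ensembl identifiers (GRCh37), made by the authors from reads of stranded poly(A) libraries; the counting program and its strand setting are not given in the sources used here. The deposited coverage values along transcripts were computed by the authors with Picard from the aligned reads and are relative to the mean; the ratio of 5 prime to 3 prime coverage was between 0.845 and 0.899. Of the identifiers 55665 have a symbol, and matched identifiers hold 99.4% of counts. Count lines that are not genes were removed: no feature took 5.23% to 9.93% and ambiguous 3.09% to 3.44% of a library. Tests used edgeR 4.0.16 (quasi-likelihood, robust, TMM, default expression filter) in R 4.3.3, checked with DESeq2 1.42.0 on all genes with a count, with its own independent filtering in place of the expression filter; tables and drawings used Python 3.11.15, pandas 2.3.3, numpy 2.4.6 and matplotlib 3.10.9. The pipeline was tested on simulated data. Adjusted p covers all genes tested in a comparison. Named genes are BASP1, members that were called, had an adjusted p under 0.05, led their family, belong to a paralogue pair or were not tested, the 3 largest changes per comparison not called among members whose mean reached 1 CPM in either line, and up to 5 called genes of the actin regulator list per direction. The lists were chosen, like the members, with earlier results of these data known. Whether replicates with the same number belong together was checked by correlating their deviations from the line mean, against a limit of 0.1. For replicates 1, 2 and 3 this gave 0.290, 0.322 and 0.393 for SW480-B with SW480. SW480-gRNA-B-all gave 0.291, -0.037 and 0.266 with SW480, and 0.235, -0.087 and 0.241 with SW480-B, so only replicate 2 fell short. For calls in SW480-B against SW480, where each passed, the fit with replicate number as a block is given too. With SW480-gRNA-B-all the block is 1 of the alternatives, and it ended the call of FMNL3 against SW480. It kept those of CTTN (edgeR adjusted p 0.0171), DAAM2 (0.00884) and WIPF1 (0.0337), and of WASL against SW480-B (0.00578). Alternatives changed size factors, filters, libraries, tool and exon length; the length of all exons, the totals and shares without each library, and the refits of the actin regulator list were chosen after seeing the data.

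The lines differ in clone, vector and drug selection as well as in BASP1, the replicates of a line come from 1 clone or pool, and no line with an empty vector was analysed here. In bulk RNA, fewer cells of a kind and less RNA per cell cannot be told apart. RNA levels do not show protein amount, actin filaments or activity. With 3 libraries per line many calls hang on single libraries, and a gene not called may still differ. Replicates 2 and 3 of SW480-gRNA-B-all are so alike that they may hold less than the information of separate cultures, which was not tested. Promoter sequences were read for description only.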

Additional observations from a re-analysis of the deposited data

Results flagged for a closer look

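The lines that express BASP1 were compared directly by edgeR, SW480-gRNA-B-all against SW480-B. Among the members, ARPC4 had a log2 fold change of 0.88 and WASL of -1.13, both with an edgeR adjusted p under 0.05 in the main fit, which neither keeps with the near-alike SW480-gRNA-B-all libraries summed (0.140 for ARPC4 and 0.114 for WASL, in ranges of 0.00731 to 0.140 and 0.000602 to 0.114 over the alternative fits). ARPC4 lies below a 2-fold change and WASL beyond it. The origin of these differences was not tested.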

How the results depend on the processing

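Each count of calls is given for the main edgeR fit and then for the alternatives that moved it; for leaving out 1 library the lowest and highest are given, and the cause was not tested. Of all genes, 1055 were called in SW480-gRNA-B-all against SW480: 2380 with DESeq2, which here also drops the filter (edgeR without a filter 1365), 97 with the near-alike libraries (replicates 2 and 3) of that line summed, 1580.0 with all 9 libraries in 1 fit, 1199 with the replicate block, 1036 with RLE, 870.0 with at least 1 CPM, 1256 at any size of change, and 8 to 2659 with a library left out. Members called higher were 2 (1.89% of all genes): 1 with the replicate block (FMNL3 lost, 2.12% of all genes), 0 summed (0.119%), 0 to 6 leaving out (0.00606% to 5.70%). Members called lower were 2 (4.66% of all genes): 3 without a filter (3.17%), with all 9 libraries (6.38%), with the replicate block (5.33%) and with DESeq2 (5.10%). They were 1 with at least 1 CPM in 3 libraries (4.32%), 0 summed (0.458%) and 0 to 5 leaving out (0.0424% to 10.1%). In SW480-B against SW480, 216 genes were called: 735 without a filter, 143 with at least 1 CPM, 452 with all 9 libraries in 1 fit, 231 with RLE, 1096 with DESeq2 and without that filter, and 0 to 921 leaving out. With the replicate block there were 56 higher (main 15) and 263 lower (main 201). Members called higher were 0 by edgeR (0.0931% of all genes), with 3 at an unadjusted p under 0.05: 1 without a filter (0.66%), 1 with DESeq2 (1.22%), 0 to 1 leaving out (0.0% to 1.34%). Members called lower were 2 (1.25% of all genes): 3 with all 9 libraries (2.16%) and with DESeq2 (2.43%), 1 with at least 1 CPM (0.947%), 0 to 3 leaving out (0.0% to 4.12%). In SW480-gRNA-B-all against SW480-B, 1059 genes were called: 1389 with the replicate block, 1386 without a filter, 1577 with DESeq2, 1388 at any size of change, 1065 with RLE, 947 with at least 1 CPM, 654 with all 9 libraries, 446 summed, 420 to 1548 leaving out. Members called higher were 0 by edgeR (2.31% of all genes), with 8 at an unadjusted p under 0.05: 1 with the replicate block (3.18%), 1 with DESeq2 (1.93%), 0 to 2 leaving out (0.826% to 3.71%). At any size of change there was 1, against 480 of all 15846 genes. Members called lower were 1 (4.37% of all genes): 2 with the replicate block (5.59%), 2 with DESeq2 (3.54%), 0 summed (1.87%), 0 to 3 leaving out (1.74% to 5.75%). For the WAVE partners, CPM not divided by length gave a log2 ratio of -0.023 for SW480-B against SW480 (main -0.41) and 0.12 for SW480-gRNA-B-all against SW480-B (main 0.54). With the length of all exons the CFL2 share differed by 1.87 percentage points for SW480-gRNA-B-all against SW480 (main 0.483) and 1.79 for SW480-B against SW480 (main 0.464). Other actin regulators called in SW480-gRNA-B-all against SW480 were 7 (1.89% of all genes higher and 4.66% lower). They were 10 without a filter (1.41% and 3.17%) and with the replicate block (2.12% and 5.33%), 11 with all 9 libraries (3.09% and 6.38%) and 13 with DESeq2 (2.88% and 5.10%). There were 2 summed (0.119% and 0.458%) and 0 to 12 leaving out (0.00606% to 5.70% and 0.0424% to 10.1%). In SW480-B against SW480 it was 1 (0.0931% of all genes higher and 1.25% lower). There were 3 without a filter (0.66% and 1.79%), 2 with all 9 libraries (0.552% and 2.16%), 2 with the replicate block (0.348% and 1.63%), 3 with DESeq2 (1.22% and 2.43%) and 0 to 4 leaving out (0.0% to 1.34% and 0.0% to 4.12%). In SW480-gRNA-B-all against SW480-B there were 5 (2.31% of all genes higher and 4.37% lower). There were 8 without a filter (1.74% and 3.07%) and with the replicate block (3.18% and 5.59%), and 9 with DESeq2 (1.93% and 3.54%). With at least 1 CPM there were 6 (2.35% and 4.5%). They were 4 with all 9 libraries (1.09% and 2.84%) and summed (0.863% and 1.87%), and 4 to 9 leaving out (0.826% to 3.71% and 1.74% to 5.75%). Over single genes, 1337 alternative values kept the call or its absence, 35 passed the thresholds newly and 82 no longer passed; none was called in the opposite direction.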
